A study of Mus musculus with 12 samples.

Results

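The genes described here are the mouse transporters whose names place them in 2 solute carrier families, Slco and Slc22a, and in 3 families of ATP-binding cassette (ABC) transporters, Abcb, Abcc and Abcg. They were taken by name, as every listed gene whose symbol begins with one of these family names followed by a number, with symbols holding -ps left out. The rule gave 67 of the 55416 genes listed for each tissue, of which 15 belong to Slco, 26 to Slc22a, 10 to Abcb, 10 to Abcc and 6 to Abcg. Their RNA was measured by RNA-seq in liver and intestine (duodenum) of male C57BL6/J mice that received corticosterone (CORT), the main glucocorticoid of rodents, or vehicle (Veh). They were aged 8 weeks when treatment began, carried no transgene or deletion named in the sources, and were injected under the skin every day for 8 weeks, with CORT at 40 mg/kg. There were 3 libraries in each of 4 groups (liver Veh, liver CORT, intestine Veh, intestine CORT), 12 in all, labelled as biological replicates.

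Slco genes encode organic anion transporting polypeptides, which take bile acids, steroid conjugates, thyroid hormone and many drugs into cells. Slc22a genes encode carriers of organic cations, organic anions and carnitine. ABC transporters use ATP to pump substrates out of a cell or across an inner membrane. In the hepatocyte, uptake carriers face the blood and ABC pumps such as Abcb11 (the bile salt export pump) empty into bile, while in the enterocyte ABC pumps of the brush border return sterols, conjugates and drugs to the gut lumen.

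Levels are given as TPM, a share of all transcripts of a library corrected for gene length, so that levels of different genes can be set beside each other. TPM summed to nearly the same total in every library, and between 17897 and 20446 genes were above 0. The depth of sequencing is unknown, so that the spread between libraries is the only measure of error. The glucocorticoid target Fkbp5 was higher in every CORT library than in every Veh library of both tissues, with log2 fold changes of 4.23 ± 0.32 (SE) in liver and 4.30 ± 0.34 in intestine (adjusted p = 0.00178 and 0.0045, limma). Tsc22d3, another glucocorticoid target, rose in intestine and had the same direction in all liver libraries, without passing the test there (adjusted p = 0.0623, limma). Intestine Veh2 and Veh3 stood apart, because 37 genes of pancreatic acinar cells took 5.14% and 4.39% of their TPM, against 0.259% to 0.434% in the other 4 intestine libraries. In those 4, Reg1 alone (1883 to 3608 TPM) made up most of this share. A set of 10 acinar enzyme genes took 2.67% and 2.28% in Veh2 and Veh3, against 0.00165% to 0.00864% in the other 4. Summed TPM of 5 enterocyte genes was 1.49% to 1.98% in intestine Veh and 2.65% to 3.01% in intestine CORT, and none of the 5 was at 0. Apoa4 made up most of this sum (12570, 8298 and 7906 TPM in Veh, 21545, 16882 and 21085 TPM in CORT), Fabp2 was higher in every CORT library as well, and Vil1, Sis and Alpi overlapped between treatments. Apoa4 was also higher in liver CORT (555 to 3840 TPM) than in liver Veh (76.2 to 172 TPM). These tissues hold several cell types, so fewer cells of a type and less RNA per cell cannot be told apart for any transporter below.

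Promoters are shown first for Slc22a5 and Slc22a4, and for Abcg5, which shares its promoter region with Abcg8. Slc22a5 and Slc22a4 are 2 neighbouring carriers on chromosome 11, separated by Slc22a21, and Slc22a5 rose while Slc22a4 fell in CORT intestine. Abcg5 and Abcg8 lie beside each other on chromosome 17 with starts facing apart. The 250 bases before each gene's start are given 5′ to 3′ in the direction of transcription, from RefSeq (GRCm38.p6, a build older than the GRCm39 named for the deposited values). Capitals mark a match to the glucocorticoid receptor hexamer AGAACA or its reverse complement TGTTCT.
Slc22a5 (chr11:53891704-53891953, minus strand): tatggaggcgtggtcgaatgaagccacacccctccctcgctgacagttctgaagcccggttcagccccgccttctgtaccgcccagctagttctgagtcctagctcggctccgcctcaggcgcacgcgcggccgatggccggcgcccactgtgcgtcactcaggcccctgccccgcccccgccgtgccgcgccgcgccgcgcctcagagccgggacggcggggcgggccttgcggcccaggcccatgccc
Slc22a4 (chr11:54028105-54028354, minus strand): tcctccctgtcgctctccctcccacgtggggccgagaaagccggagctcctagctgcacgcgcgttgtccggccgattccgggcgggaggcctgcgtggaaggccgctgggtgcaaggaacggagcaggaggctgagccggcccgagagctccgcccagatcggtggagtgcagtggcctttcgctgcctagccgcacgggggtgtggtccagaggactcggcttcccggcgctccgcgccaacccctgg
Abcg5 (chr17:84683012-84683261, minus strand): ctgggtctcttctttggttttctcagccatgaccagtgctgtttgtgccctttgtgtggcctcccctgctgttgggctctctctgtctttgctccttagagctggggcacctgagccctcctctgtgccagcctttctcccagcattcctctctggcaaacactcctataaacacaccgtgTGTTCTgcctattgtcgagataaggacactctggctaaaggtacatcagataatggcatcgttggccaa
The promoter windows searched were 300 bases long, from 250 before to 50 after a start, and 53 of 67 members had one, with 63 windows in all. Slc22a5 and Slc22a4 had GC contents of 72.7% and 69.0% and 34 and 29 CpG dinucleotides in their windows, against medians of 52.7% and 7 over 32851 windows of all genes. The Abcg5 window overlapped one window of Abcg8 by 209 bases, so that the hexamer in capitals lies in both. The hexamer was found on either strand in 19.0% of all windows and in 16 of 63 member windows. Inverted repeats of this hexamer with 3 bases between (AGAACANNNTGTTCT) and repeats of AGGTCA, the hexamer of many nuclear receptors, as AGGTCANAGGTCA, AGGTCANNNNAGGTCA or AGGTCANTGACCT, were in 0 of 63 member windows and in at most 0.04% of all windows. These are matches of letters only, and windows without a match say nothing about binding outside them. No window for Slc22a13b was used here.

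Which transporters each tissue expresses was asked first, in Veh libraries. A member was tested where its mean reached 1 TPM in at least 1 group of the comparison. For CORT against Veh, either the Veh or the CORT group could meet this limit. By it, 23 of the 67 members were tested in both tissues, 12 in liver only, 8 in intestine only and 24 in neither. The last 24 were Abcb5, Abcc8, Abcc12, Abcg4, Slc22a2, Slc22a6, Slc22a8, Slc22a12, Slc22a13, Slc22a14, Slc22a16, Slc22a19, Slc22a20, Slc22a22, Slc22a26, Slc22a27, Slc22a29, Slco1a5, Slco1c1, Slco4c1, Slco5a1, Slco6b1, Slco6c1 and Slco6d1. Their highest value in any library was 1.89 TPM and 10 of them were listed at 0 in all 12 libraries. Summed over all 67 members, transporter RNA came to 1291 ± 68.1 TPM (SD, n = 3) in liver Veh and 906 ± 69.0 TPM in intestine Veh. Liver carried more Slco RNA (311 ± 43.1 against 49.1 ± 1.79 TPM) and more Slc22a RNA (420 ± 56.5 against 250 ± 10.9 TPM). Intestine carried more Abcg RNA (267 ± 41.9 against 112 ± 20.8 TPM), and liver more Abcb RNA (243 ± 6.39 against 141 ± 9.55 TPM), and in these 4 families the tissues did not overlap. Summed Abcc RNA was 205 ± 21.6 TPM in liver and 199 ± 35.2 TPM in intestine, with overlap.

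In the comparison of Veh liver with Veh intestine, 40 members were tested with limma on log2(TPM + 1), and 14 were higher in liver and 18 higher in intestine at a fold change over 1.5 with an adjusted p no higher than 0.05. Over all 14134 genes tested, 14.4% were higher in liver and 53.0% higher in intestine by the same rule. The limit of 1 TPM could be met in either tissue, for members and for all genes. Members near 0 in one tissue, such as Slco1b2 and Abcb11 in intestine or Slco4a1 in liver, thus entered only through the tissue where they are high. For such members, here and by family below, the call largely restates how they entered. The median log2 difference (liver minus intestine) of all genes was -0.72 on TPM, which are shares of each tissue's transcripts, and that of the 40 members was -0.40. When libraries were scaled by the median of ratios, the median of all genes became -0.02 and 28 members kept their call and direction, 14 higher in liver and 14 higher in intestine. After this scaling, 3854 of all 13931 genes tested were called higher in liver and 4272 higher in intestine, beside 17 and 14 of 42 members. The share of all genes called under both scalings was not counted. Abcb8, Abcb10, Abcg5 and Abcg8 were higher in intestine on TPM alone, Abcc3 and Abcc9 were higher in liver only after scaling, and Abcc2, Slc22a18 and Slco2a1, none of them called either way, were among the members that changed sign.

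**Figure D1:**
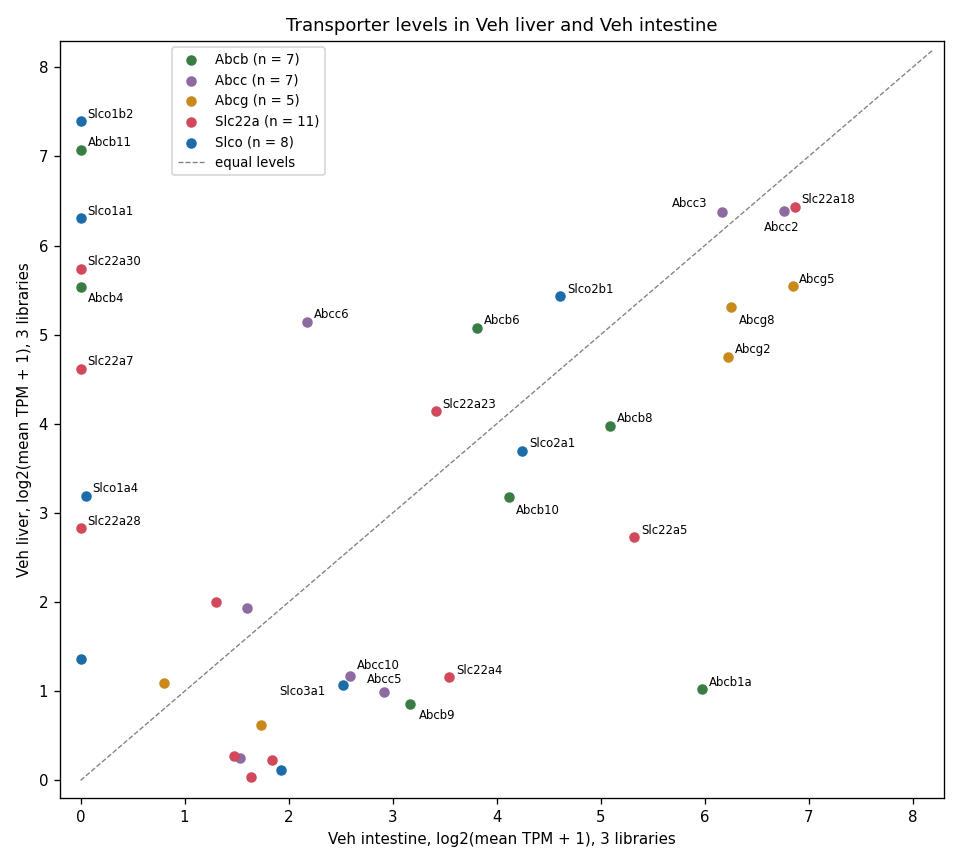
Mean level of 38 of the 40 members that reached 1 TPM in a Veh group, in intestine (horizontal axis, log2 of mean TPM + 1) and liver (vertical axis, same scale), each from 3 libraries and coloured by family. Points on the left edge, among them Slco1b2, Abcb11, Slco1a1, Slc22a30 and Abcb4, were at or near 0 in intestine, and Abcb1a lies far below the line of equal levels.

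Among the uptake carriers of the Slco family, 4 of 8 tested members were higher in liver and 2 in intestine under both scalings. Slco1b2, which takes bile acids and bilirubin into hepatocytes, stood at 188.40, 122.31 and 192.94 TPM in liver Veh and was listed at 0 in all 6 intestine libraries. Slco1a1, a carrier of organic anions and steroid sulfates, stood at 77.62, 67.64 and 88.87 TPM in liver Veh and was likewise listed at 0 in intestine. Slco2b1, a broadly expressed carrier, was present in both tissues at 42.2 ± 0.72 TPM in liver and 23.5 ± 2.84 TPM in intestine. Slco3a1 and Slco4a1, the latter a carrier of thyroid hormone, were the members higher in intestine, at 4.74 ± 0.38 and 2.81 ± 0.85 TPM against 1.11 ± 0.47 and 0.0833 ± 0.0321 TPM in liver.

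Among Slc22a carriers, 6 of 12 tested members were higher in liver and 5 in intestine under both scalings. Slc22a30, an organic anion carrier of rodents, stood at 52.5 ± 5.52 TPM in liver and at 0 in intestine. Slc22a7, the organic anion transporter OAT2, was at 37.05 and 31.07 TPM in liver Veh1 and Veh3 but at 2.71 TPM in Veh2, and at 0 in intestine Veh. The carnitine carrier Slc22a5 showed the opposite pattern, with 31.74, 42.19 and 43.22 TPM in intestine Veh against 4.56, 6.76 and 5.56 TPM in liver Veh, 6.94 times as much in intestine (log2 difference -2.60 ± 0.18, adjusted p = 1.79e-05, limma). Its neighbour Slc22a4, a carrier of ergothioneine, stood at 10.7 ± 1.04 TPM in intestine Veh and 1.24 ± 0.24 TPM in liver Veh, a ratio of 8.63.

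Abcb11 stood at 147.23, 128.00 and 126.30 TPM in liver Veh and at no more than 0.01 TPM in intestine Veh, and Abcb4, which moves phosphatidylcholine into bile, stood at 44.58, 46.37 and 45.31 TPM in liver Veh and at no more than 0.01 TPM in intestine Veh. Both bile pumps were thus near or at 0 in every intestine library. Abcb1a, a P-glycoprotein that expels drugs, was the reverse, at 68.96, 58.71 and 58.26 TPM in intestine Veh and 0.56, 1.83 and 0.70 TPM in liver Veh (log2 difference -5.00 ± 0.24, adjusted p = 2.60e-06, limma). Abcb6, a porphyrin carrier, was higher in liver (32.8 ± 4.80 against 13.1 ± 1.90 TPM), but 47.5% of its 75-base stretches also occur in an overlapping transcript (Gm29253), so its reads and those of that transcript are uncertain. Abcb9, a peptide carrier of lysosomes, was higher in intestine (8.01 ± 1.73 against 0.807 ± 0.523 TPM).

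Among Abcc members, Abcc2 and Abcc3, which export conjugates across the apical and the basolateral membrane, were abundant in both tissues. Abcc2 stood at 82.8 ± 16.5 TPM in liver and 107 ± 23.6 TPM in intestine, and Abcc3 at 82.4 ± 18.2 and 70.9 ± 8.78 TPM, and on TPM neither differed beyond its spread. Abcc6, which releases ATP from hepatocytes, was 9.79 times as high in liver (34.4 ± 3.97 against 3.52 ± 1.10 TPM), while Abcc5, an exporter of cyclic nucleotides, and Abcc10 were higher in intestine, at 6.56 ± 2.72 and 5.04 ± 0.71 TPM against 0.993 ± 0.259 and 1.25 ± 0.26 TPM in liver. Abcc9 stood at 2.84 ± 1.68 TPM in liver and 2.02 ± 0.50 TPM in intestine.

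Of the Abcg family, Abcg2, an exporter of drugs and urate, stood at 74.0 ± 6.58 TPM in intestine Veh and 26.0 ± 5.18 TPM in liver Veh (log2 difference -1.49 ± 0.17, adjusted p = 0.000225, limma), and the call held under both scalings. Abcg5 and Abcg8 together form the pump that returns sterols to the gut lumen and to bile. Abcg5 stood at 145.32, 90.00 and 106.70 TPM in intestine Veh and at 32.84, 63.33 and 40.77 TPM in liver Veh, and Abcg8 at 82.49, 66.21 and 76.93 TPM and at 31.40, 48.13 and 36.22 TPM. On TPM both were higher in intestine (adjusted p = 0.00388 and 0.00238, limma), and after median-ratio scaling the differences shrank to -0.52 and -0.15 on the log2 scale and were no longer called. Abcg1, which exports cholesterol to lipoproteins, stood near the low limit in both tissues (1.13 ± 0.95 TPM in liver, 0.74 ± 0.20 TPM in intestine). The ratio of Abcg5 to Abcg8 lay between 1.05 and 1.79 over all 12 libraries. It was 1.36 to 1.76 in intestine Veh and 1.09 to 1.17 in intestine CORT, without overlap. In liver it was 1.05 to 1.32 in Veh and 1.28 to 1.79 in CORT. Differences in this ratio were not tested.

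The effect of CORT in liver was compared next. Of 35 members tested, 1 rose (Slc22a5), 0 fell, and 34 did not pass the test, beside 4.91% of all 11699 genes called higher and 2.01% called lower. At an unadjusted p under 0.05 (limma), 3 of the 35 members were higher and 7 lower, beside 1973 and 1060 of all 11699 genes. The median log2 fold change of the 35 members was 0.00 and that of all genes tested 0.08. By family, the medians were -0.16 for 8 Abcb, 0.05 for 6 Abcc, 0.03 for 4 Abcg, -0.01 for 10 Slc22a and 0.02 for 7 Slco members. Among the liver Veh libraries, Veh2 held the highest value for 19 of the 35 members and the lowest for 9. Veh1 held the highest for 8 and the lowest for 19, and Veh3 the highest for 8 and the lowest for 7.

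Slc22a5 (ENSMUSG00000018900) stood at 4.56, 6.76 and 5.56 TPM in liver Veh and at 36.09, 32.12 and 18.44 TPM in liver CORT. The groups did not overlap, and the lowest CORT library lay well above the highest Veh library. Its mean was 5.13 times as high, with a log2 fold change of 2.13 ± 0.26 (SE, adjusted p = 0.00723, limma). The call held in all 11 alternative fits, with adjusted p between 0.00405 and 0.0333. Of its 75-base stretches, 17.1% are shared with Slc22a21, which stood at no more than 0.81 TPM in any liver library.

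**Figure D2:**
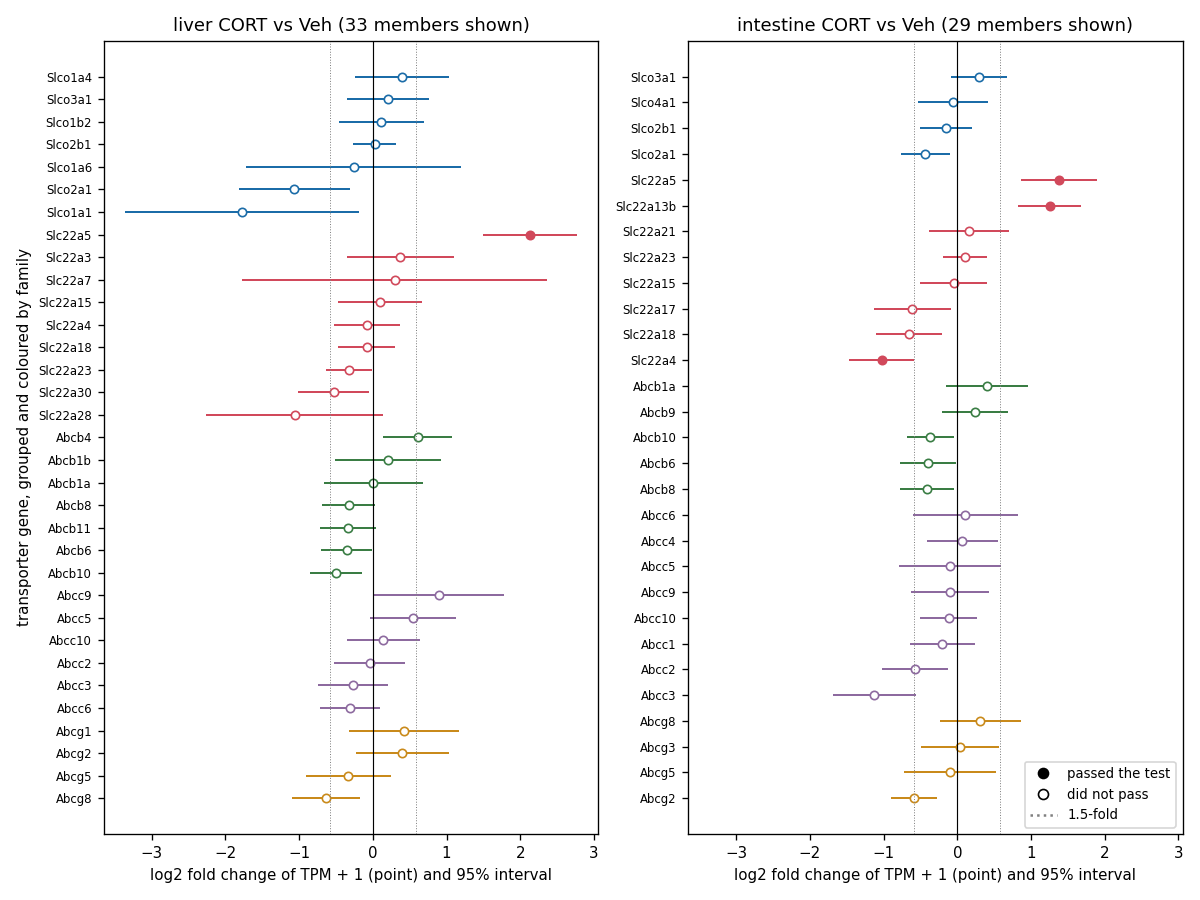
Log2 fold change of TPM + 1 (CORT against Veh, points) with 95% intervals (lines) for 33 of the 35 members tested in liver (left) and 29 of the 31 tested in intestine (right), ordered by family, with filled points for members that passed the test and dotted lines at 1.5-fold. Slc22a5 lies to the right in both tissues, Slc22a13b to the right and Slc22a4 to the left in intestine, and most other intervals reach across or close to 0.

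The hepatic uptake carriers gave mixed values. Slco1a1 stood at 77.62, 67.64 and 88.87 TPM in Veh and at 75.12, 12.72 and 10.63 TPM in CORT, so that CORT2 and CORT3 lay far below the Veh libraries while CORT1 lay among them. Its log2 fold change was -1.77 ± 0.67 (adjusted p = 0.153, limma), and it was called only when CORT1 was left out (-2.64, adjusted p = 0.00379). For Slc22a28, too, CORT1 lay among the Veh libraries and CORT2 and CORT3 below them, at 8.67, 4.67 and 5.03 TPM in Veh and 6.20, 0.72 and 1.94 TPM in CORT (adjusted p = 0.235, limma), but 44.8% of its 75-base stretches are shared with other genes, mainly Slc22a30. Slc22a30 itself stood at 58.70, 50.62 and 48.15 TPM in Veh and 46.86, 28.27 and 34.61 TPM in CORT (adjusted p = 0.148, limma). Slco1b2 overlapped between groups, at 168 ± 39.5 and 181 ± 38.8 TPM in Veh and CORT. For Slc22a7, low in Veh2, the log2 fold change of 0.29 had a 95% interval from -1.76 to 2.35. Slco2a1, the prostaglandin carrier, stood at 8.72, 18.09 and 9.16 TPM in Veh and 5.36, 3.37 and 6.42 TPM in CORT (log2 fold change -1.06 ± 0.31, adjusted p = 0.0888, limma), and it passed the test only after median-ratio scaling (-1.14, adjusted p = 0.0417).

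**Figure D3:**
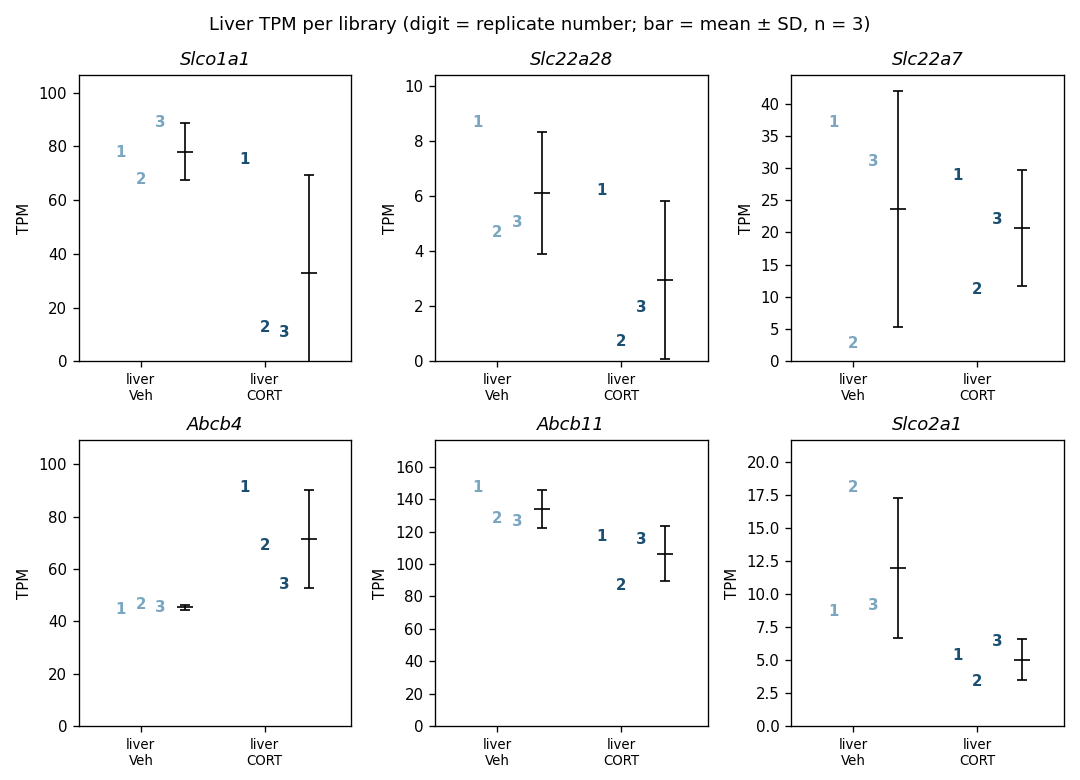
TPM in each liver library for 6 members, with the replicate number as the plotted digit and a bar for the mean ± SD of 3 libraries (bars are cut off at 0). For Slco1a1 and Slc22a28, CORT1 lies among the Veh libraries and CORT2 and CORT3 below them, and for Slc22a7 Veh2 lies apart at 2.71 TPM.

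The bile pumps of the canalicular membrane did not pass the test. Abcb11 (ENSMUSG00000027048) stood at 147.23, 128.00 and 126.30 TPM in Veh and at 116.93, 86.78 and 115.30 TPM in CORT. Every CORT library lay below every Veh library, but the log2 fold change was -0.34 with a 95% interval from -0.71 to 0.03 (adjusted p = 0.226, limma). Abcb4 lay the other way, at 44.58, 46.37 and 45.31 TPM in Veh and 91.17, 69.16 and 54.17 TPM in CORT, without overlap (log2 fold change 0.61 ± 0.19, adjusted p = 0.104, limma). Abcg5 (ENSMUSG00000040505) stood at 32.84, 63.33 and 40.77 TPM in Veh and 36.04, 30.83 and 37.46 TPM in CORT, with a 95% interval of the log2 fold change from -0.90 to 0.23. Its partner Abcg8 stood at 31.40, 48.13 and 36.22 TPM in Veh and 27.69, 24.11 and 20.98 TPM in CORT (log2 fold change -0.63 ± 0.19, adjusted p = 0.0915, limma), and passed only after median-ratio scaling (-0.73, adjusted p = 0.0279). Abcc2 at 82.8 ± 16.5 and 80.2 ± 15.8 TPM, Abcc3 at 82.4 ± 18.2 and 68.0 ± 10.5 TPM, Abcc6 at 34.4 ± 3.97 and 27.7 ± 4.94 TPM and Abcg2 at 26.0 ± 5.18 and 35.3 ± 10.8 TPM overlapped between Veh and CORT. Abcc9, a subunit of potassium channels in muscle and vessels, stood at 1.28, 4.61 and 2.62 TPM in Veh and 4.69, 4.47 and 8.73 TPM in CORT (adjusted p = 0.178, limma). The sum of 4 smooth muscle genes was between 1.79 and 10.7 TPM in Veh and between 2.57 and 7.01 TPM in CORT, with at most 1 of them at 0, and their part in this value was not tested.

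In all, Veh and CORT groups did not overlap in liver for 2 members that lay higher in CORT (Abcb4, Slc22a5; 20.6% of all genes tested) and for 8 that lay lower (Abcb6, Abcb8, Abcb10, Abcb11, Abcg8, Slc22a23, Slc22a30, Slco2a1; 11.6% of all genes tested), which is 5.71% and 22.9% of the 35 members.

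In intestine, 31 members were tested. Slc22a5 and Slc22a13b rose, Slc22a4 fell and 28 did not pass the test, beside 1.23% of all 13607 genes called higher and 0.919% called lower. At an unadjusted p under 0.05 (limma), 2 of the 31 members were higher and 10 lower, beside 1186 and 1432 of all 13607 genes. The median log2 fold change was -0.10 over the members and -0.01 over all genes. All 3 calls were within the Slc22a family, and the medians by family were -0.07 for 6 Abcb, -0.11 for 8 Abcc, -0.03 for 4 Abcg, 0.10 for 9 Slc22a and -0.11 for 4 Slco members.

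Slc22a5, higher in intestine than liver already in Veh, stood at 31.74, 42.19 and 43.22 TPM in intestine Veh and at 126.13, 107.64 and 77.92 TPM in intestine CORT. The groups did not overlap, and the mean was 2.66 times as high in CORT (log2 fold change 1.37 ± 0.21 SE, adjusted p = 0.031, limma). Slc22a21, which shares part of its sequence and lies beside it, stood at 2.58 ± 0.86 TPM in Veh and 2.96 ± 0.61 TPM in CORT, with a log2 fold change of 0.16. Slc22a4 (ENSMUSG00000020334), the next carrier on the chromosome, stood at 11.52, 9.51 and 10.98 TPM in Veh and 4.62, 3.69 and 6.10 TPM in CORT. Every CORT library lay below every Veh library, and the log2 fold change was -1.02 ± 0.18 (adjusted p = 0.0421, limma). Slc22a13b (ENSMUSG00000092212) stood at 2.73, 1.65 and 1.98 TPM in Veh and 5.74, 7.17 and 6.23 TPM in CORT, a mean 3.01 times as high (log2 fold change 1.25 ± 0.18, adjusted p = 0.0253, limma). RefSeq holds Slc22a13b as a transcribed pseudogene, and 553 of its 1384 75-base stretches also occur in Slc22a13, which was listed at 0 in all 6 intestine libraries. These 3 calls kept their direction in every alternative fit but were often lost. When 1 library was left out, Slc22a5 passed in 1 of 6 fits (without CORT3), Slc22a13b in 1 of 6 (without Veh1) and Slc22a4 in 0 of 6, with adjusted p up to 0.1, 0.105 and 0.15. Without both acinar-rich libraries, Veh2 and Veh3, the log2 fold changes were 1.65, 0.98 and -1.13 for Slc22a5, Slc22a13b and Slc22a4 and none passed, with 1 Veh library left. With the 37 acinar genes removed and the rest rescaled, all 3 passed.

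**Figure D4:**
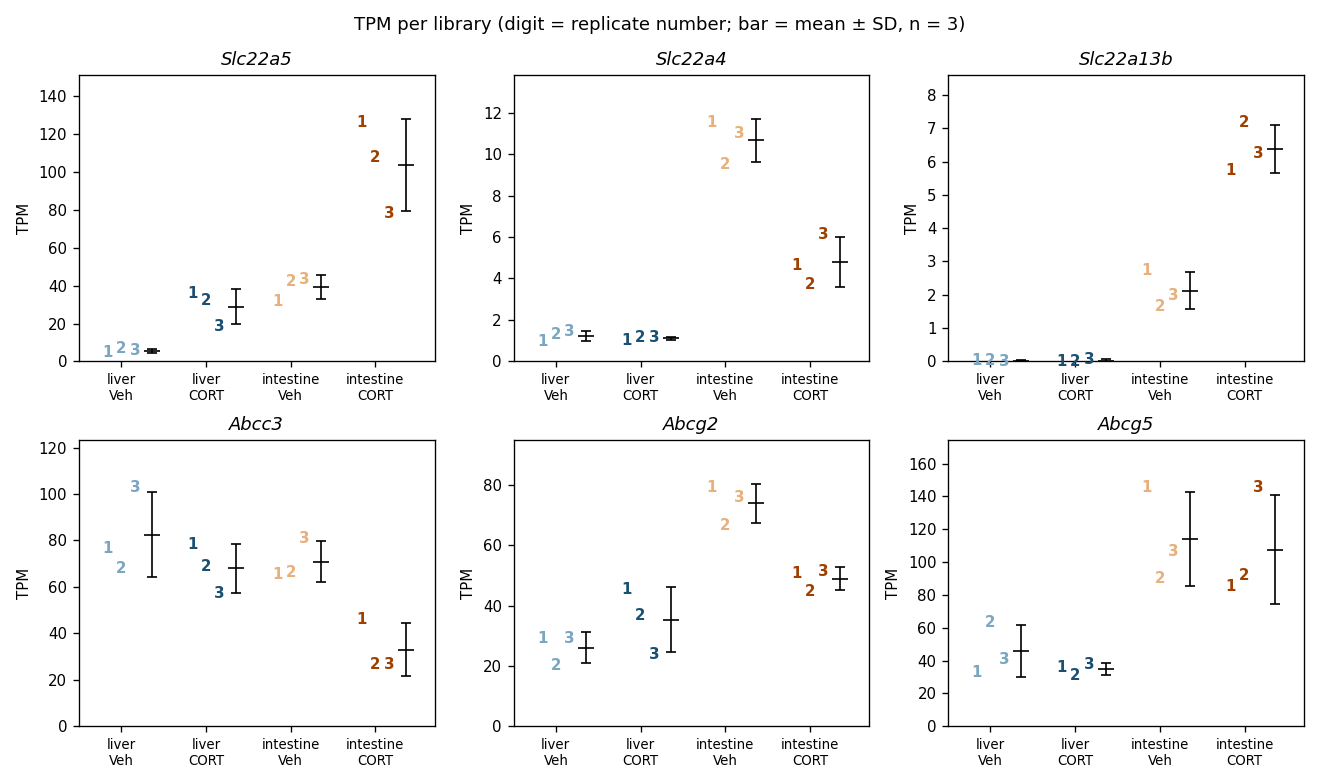
TPM in each library for 6 members in the 4 groups, with the replicate number as the plotted digit and a bar for the mean ± SD of 3 libraries. Slc22a5 is higher in CORT in both tissues, Slc22a4 is lower and Slc22a13b higher in CORT intestine, Abcc3 and Abcg2 lie lower in CORT intestine without overlap, and Abcg5 overlaps between treatments.

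Abcc3, Abcc2 and Abcg2, exporters of conjugates and drugs, lay lower in CORT intestine without passing the test. Abcc3 stood at 65.38, 66.37 and 81.06 TPM in Veh and 46.15, 26.40 and 26.41 TPM in CORT, a log2 fold change of -1.12 ± 0.23 (adjusted p = 0.0654, limma), and was called without CORT1 (adjusted p = 0.0356). Abcc2 stood at 93.14, 94.55 and 134.69 TPM in Veh and 72.80, 61.79 and 79.29 TPM in CORT (log2 fold change -0.57 ± 0.18, adjusted p = 0.167, limma). Abcg2 stood at 79.28, 66.61 and 76.01 TPM in Veh and 50.80, 44.64 and 51.49 TPM in CORT, a log2 fold change of -0.58 ± 0.13 (adjusted p = 0.0724, limma), and passed with the acinar genes removed (adjusted p = 0.0478). In each of these 3 exporters the highest CORT library lay below the lowest Veh library. Abcb1a, the P-glycoprotein, stood at 60.26, 81.06 and 112.77 TPM in CORT and overlapped Veh (95% interval of the log2 fold change from -0.14 to 0.94). The sterol pump overlapped as well, with Abcg5 at 85.34, 91.90 and 145.48 TPM in CORT (interval from -0.70 to 0.51) and Abcg8 at 78.12, 78.61 and 132.41 TPM. Slc22a18, a carrier of the plasma and inner membranes whose substrate is poorly known, stood at 92.93, 56.98 and 73.35 TPM in CORT against 116 ± 2.83 TPM in Veh (adjusted p = 0.128, limma). Slc22a17, a receptor for lipocalin, stood at 1.93, 1.76 and 1.63 TPM in Veh and 1.28, 0.50 and 0.75 TPM in CORT (log2 fold change -0.61 ± 0.22, adjusted p = 0.192, limma). Among Slco carriers, Slco2b1 stood at 20.43, 23.90 and 26.05 TPM in Veh and 23.34, 20.57 and 18.98 TPM in CORT, with overlap, and Slco2a1 stood at 19.39, 16.12 and 18.42 TPM in Veh and 14.14, 11.64 and 13.42 TPM in CORT (adjusted p = 0.153, limma).

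Veh and CORT groups did not overlap in intestine for 3 members that lay higher in CORT (Slc22a5, Slc22a13b, Slco3a1; 12.2% of all genes tested) and for 10 that lay lower (Abcb6, Abcb8, Abcb10, Abcc2, Abcc3, Abcg2, Slc22a4, Slc22a17, Slc22a18, Slco2a1; 14.3% of all genes tested), which is 9.68% and 32.3% of the 31 members. Liver and intestine share no library, although the labels do not say whether the same mice gave both. Of 23 members tested in both tissues, Slc22a5 lay higher without overlap in each (5.11% of the 10500 genes tested in both did), and Abcb6, Abcb8, Abcb10 and Slco2a1 lay lower without overlap in each (2.75% of these genes did). Abcb8 and Abcb10 work in the inner mitochondrial membrane. Abcb10 stood at 7.75, 9.07 and 7.35 TPM in liver Veh and 6.23, 4.97 and 4.99 TPM in liver CORT, and at 18.65, 15.57 and 14.87 TPM in intestine Veh and 12.46, 11.81 and 12.99 TPM in intestine CORT. Its log2 fold changes were -0.50 ± 0.14 and -0.37 ± 0.13, and none of these 4 genes passed the test in either tissue, with adjusted p between 0.0842 and 0.231 (limma). The summed enterocyte genes lay higher in the CORT intestine libraries, mostly through Apoa4 as given above, and their part in these differences was not tested.

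Whether CORT acted differently in the 2 tissues was tested with a treatment by tissue term over 43 members. Of these, 2 were called, beside 3.60% of all 14806 genes tested. The difference (change in liver minus change in intestine) was 0.95 ± 0.23 on the log2 scale for Slc22a4 (adjusted p = 0.0478, limma), which stood at about 1 TPM in liver in either treatment. It was -1.26 ± 0.22 for Slc22a13b (adjusted p = 0.0107, limma), which was at no more than 0.07 TPM in any liver library, so this difference is that of a gene near 0 in one tissue. For Slc22a5 the difference was 0.76 with a 95% interval from -0.04 to 1.56 (adjusted p = 0.298, limma), so that the larger fold in liver was not shown to differ from that in intestine. Abcg2 (0.98 ± 0.30, adjusted p = 0.111) and Abcg8 (-0.95 ± 0.31, adjusted p = 0.13) did not pass in limma's test.

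The regulators and partners of these transporters were read from 4 lists. Of 20 nuclear receptors and related factors, 2 rose and 2 fell in liver and 2 rose and 2 fell in intestine (19 and 20 tested, medians 0.16 and 0.19). Nr1d1, a repressor of the circadian clock, fell by 1.93 and 2.13 on the log2 scale, and the mineralocorticoid receptor Nr3c2 by 0.86 and 1.06, in liver and intestine. Hnf4a, a master regulator of hepatocyte and enterocyte genes, stood at 144.76, 161.27 and 144.38 TPM in liver Veh and 278.50, 232.80 and 315.98 TPM in liver CORT (adjusted p = 0.0211, limma). Its intestine levels were 204 ± 15.2 TPM in Veh and 176 ± 13.4 TPM in CORT (adjusted p = 0.396, limma). The treatment by tissue term of Hnf4a was 1.08 ± 0.18 (adjusted p = 0.00886, limma). In intestine the fatty acid receptor Ppara stood at 10.18, 9.04 and 13.58 TPM in Veh and 26.35, 21.81 and 31.44 TPM in CORT (log2 fold change 1.21, adjusted p = 0.0329, limma), and Nr0b2, the bile acid-responsive repressor SHP, rose by 1.33. With 1 library left out, Nr1d1 passed in 6 of 6 fits in liver and 4 of 6 in intestine, Nr3c2 in 0 of 6 in either tissue (adjusted p up to 0.129 and 0.131, limma), Hnf4a in liver and Nr0b2 in intestine in 3 of 6 each, and Ppara in intestine in 0 of 6 (adjusted p between 0.0604 and 0.102, limma).

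Of 13 bile acid, cation and other partner carriers, 1 rose in each tissue and 0 fell (7 tested in liver, 9 in intestine, medians 0.41 and -0.06), with 3 and 4 at an unadjusted p under 0.05 in limma's test. Slc47a1, an exporter of organic cations, stood at 18.50, 14.43 and 16.58 TPM in intestine Veh and 61.57, 62.97 and 69.44 TPM in intestine CORT. Its log2 fold change was 1.91 ± 0.13 (adjusted p = 0.0031, limma), with no overlap. In liver it stood at 31.36, 31.75 and 34.14 TPM in Veh and 38.34, 34.49 and 30.27 TPM in CORT, and the treatment by tissue term was -1.84 ± 0.17 (adjusted p = 0.0004, limma). Slc10a6, a carrier of sulfated steroids, rose in liver from at most 0.15 TPM in Veh to between 0.95 and 1.43 TPM in CORT (log2 fold change 1.04, adjusted p = 0.0398, limma), near the low limit for testing. It reached the limit of 1 TPM in liver only through the CORT group (mean 1.18 TPM, against 0.0567 TPM in Veh). The limit thus let it in through the group where it is high. Slc47a1 in intestine passed in 6 of 6 fits with 1 library left out but not without both acinar-rich Veh libraries (adjusted p = 0.12, limma), and Slc10a6 in liver in 1 of 6 (adjusted p up to 0.121, limma).

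Of 22 other ABC genes, 0 rose in either tissue. Abca8b fell in liver by 0.83, and Abca2 and Tap2, a peptide pump of antigen presentation, fell in intestine by 0.97 and 0.76 on the log2 scale (17 and 16 tested, medians 0.22 and -0.08, 7 and 8 at an unadjusted p under 0.05 in limma's test). These 3 calls passed in 0 of 6 fits each with 1 library left out, with adjusted p up to 0.12 for Abca8b, 0.125 for Abca2 and 0.138 for Tap2 (limma). Of 9 scaffold and trafficking genes that hold pumps at the apical membrane, 7 were tested in liver and 8 in intestine, and 0 passed in either tissue by limma, with 2 and 0 at an unadjusted p under 0.05. The lists were read as counts, with 4.91% and 2.01% of all genes called higher and lower in liver and 1.23% and 0.919% in intestine. At an unadjusted p under 0.05 (limma), 1973 and 1060 of all 11699 genes were higher and lower in liver. In intestine these were 1186 and 1432 of all 13607 genes.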

How the data were processed

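RNA-seq of 12 libraries was analysed, 3 for each treatment in liver and intestine, with groups and replicate numbers from the sample labels. The authors' tools were SeqPrep and Sickle for trimming, HISAT2 for alignment, StringTie for assembly and RSEM for quantification (build GRCm39 in the processing notes, versions not given in the sources used here). Each library has its own deposited column of TPM, so depth is unknown.

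From these, log2(TPM + 1) was fitted with limma 3.58.1 in R 4.3.3 (eBayes with a trend) over all genes whose mean reached 1 TPM in a group, with Benjamini-Hochberg adjustment over all of them. A call needed a fold change over 1.5 and an adjusted p no higher than 0.05. This scale understates changes of low genes. Liver and intestine tables were joined by gene identifier for the comparison of tissues, where TPM were read as shares of each tissue's transcripts. The fits were tested on simulated data with independent noise for each gene and library. That setting held no library that stood apart, so it says nothing on the effect of such libraries. P-values set the difference between groups against the spread between these libraries.

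Members and lists were chosen with earlier results of these data known. Named were Abcb11 and Abcg5, all members called for CORT or for treatment by tissue, the 6 largest changes per tissue, the 3 most abundant Veh members per family and tissue, the 2 largest tissue differences per family and direction, list genes called for CORT, and Fkbp5 and Tsc22d3. Other members were named after their values were seen. Alternatives were a pseudocount of 0.1, no filter, no limit on fold change, median-ratio scaling, a replicate block, each library left out and, in intestine, acinar genes removed. Shared sequence was counted in GENCODE transcripts, and promoters came from RefSeq (GRCm38.p6). Some genes that this rule names are not reported here, although they stay in the counts and medians.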

Additional observations from a re-analysis of the deposited data

Results flagged for a closer look

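The treatment by tissue term was called for 2 of 43 members (4.65%), beside 3.60% of all 14806 genes tested. For Slc22a4 the change in liver minus the change in intestine was 0.95 on the log2 scale (adjusted p = 0.0478, limma), and it passed in 1 of 12 fits with 1 library left out (without intestine CORT3), with adjusted p between 0.0254 and 0.109. For Slc22a13b, a transcribed pseudogene in RefSeq, it was -1.26 (adjusted p = 0.0107, limma). The term passed in 12 of 12 such fits, with adjusted p between 0.00419 and 0.032 (limma), but not with a pseudocount of 0.1. Liver levels of Slc22a13b were at no more than 0.07 TPM, so a change in liver could not be measured. The term thus restates the intestine change of 1.25, which passed in 1 of 6 fits with 1 library left out. These fits are no separate support for a difference between tissues.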

How the results depend on the processing

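The number of members called in liver was 1, it was 3 with median-ratio scaling (Slc22a5, Slco2a1, Abcg8), 1 to 2 with 1 library left out, and within 1.5 times under the other settings. The number called in intestine was 3. It was 0 with no filter on low values and 0 with the replicate block, ranged from 0 to 1 with 1 library left out, and was 0 with both acinar-rich Veh libraries left out, a choice made after seeing the data that leaves 1 Veh library assumed to vary like the others. The number called by treatment by tissue was 2, and it was 0 with a pseudocount of 0.1, 1 with no filter, 1 with median-ratio scaling, 1 with the replicate block and 1 to 3 with 1 library left out. The number that differed between Veh liver and Veh intestine stayed between 31 and 34 in all alternatives, 32 with the replicate block. Under that block the adjusted p in intestine was 0.0956 for Slc22a5, 0.0943 for Slc22a13b and 0.0859 for Slc22a4. Same-numbered libraries correlated between -0.12 and 0.0734 in their deviations from group means, so the numbers were not taken as pairs. Of 894 values of single named genes under the alternatives, 751 kept their direction and side of the threshold. Another 123 kept their direction but lost a call, and 6 gained one. The remaining 14 changed sign, none of them of a called change. With 1 library left out, the log2 fold change in liver ranged from -0.20 to 0.11 for Abcc2, -0.20 to 0.0244 for Slc22a18, -0.10 to 0.31 for Slco1b2 and -0.0365 to 0.0805 for Slco2b1. In intestine it ranged from -0.34 to 0.17 for Abcc5 and from -0.33 to 0.092 for Abcg5, and the difference of Abcc9 between Veh tissues from -0.0606 to 0.59. With median-ratio scaling it was -0.0695 for Slco2b1 in liver. Without both acinar-rich libraries it was 0.39 for Abcc5 and 0.0307 for Slco2b1 in intestine. For all of these the cause was not tested.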
